A study of Mus musculus with 8 samples.

Results

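The genes of activin, of its soluble inhibitors and of its receptors were followed in mouse cells on the way to pluripotency. They are 9 genes given by name: the subunit genes Inhba and Inhbb, the inhibitor genes Fst and Fstl3 with their relative Fstl1, the type I receptor genes Acvr1b and Acvr1c, and the type II receptor genes Acvr2a and Acvr2b. All 9 were found among the 26930 genes of the deposited count table, and 8 of them had enough reads to be tested. RNA depleted of ribosomal RNA was sequenced from embryonic fibroblasts on day 8 of reprogramming with the OKSM factors, in AGi medium. One genotype was WT, which the labels also call H3, and the other K36M, a histone H3 mutant with methionine in place of a lysine, known to hold back methylation of that residue on normal histones too. Each genotype was kept either with Repsox at 250 nM, which blocks the kinase of the receptor Tgfbr1, or with recombinant TGF-beta1 at 2.5 ng/ml. Each of the 4 groups had 2 libraries. How the mutant histone was brought into the cells, and whether the paired libraries grew as separate cultures, is not given in the sources used here. The p-values may therefore measure only technical spread. Every group received one agent or the other, so the part of each in a treatment difference cannot be told apart.

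Activins are secreted dimers of inhibin beta subunits, encoded by Inhba for activin A and Inhbb for activin B. A type II receptor kinase, the product of Acvr2a or Acvr2b, binds the dimer and activates a type I receptor kinase, the product of Acvr1b or Acvr1c, which phosphorylates the transcription factors Smad2 and Smad3. Follistatin, the product of Fst, wraps around activin and blocks its contact with the receptors, and the product of Fstl3 acts in a similar way. Nodal, a ligand of the early embryo and of pluripotent cells, uses the same receptors, and TGF-beta itself acts on the same Smads through receptors of its own.

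The libraries held 10928302 to 15594217 counts. The cells were checked against 3 lists of 12 markers each, given here as summed CPM (counts scaled to library size, here by the TMM method). Fibroblast markers summed to 3748 and 4054 CPM in Repsox-treated WT, 11690 and 13090 in TGF-beta-treated WT, 222.5 and 259.1 in Repsox-treated K36M, and 949.5 and 971.7 in TGF-beta-treated K36M. Epithelial markers ran from 2307 to 5710 CPM in all groups but TGF-beta-treated WT, where they stood at 161.7 and 208.1. Pluripotency markers summed to 1453 and 1688 CPM in Repsox-treated WT and to 46.31 and 53.89 in TGF-beta-treated WT. In K36M they summed to 2109 and 2114 CPM under Repsox and to 1122 and 1141 under TGF-beta. All markers of these lists were read in every group. In WT, 5 fibroblast markers rose and 6 fell under TGF-beta although their sum was higher, and all 12 were lower in K36M under Repsox. With TGF-beta 9 were lower in K36M, 1 was higher (Thy1) and 2 were not called. Over all libraries macrophage and blood genes summed to 17.0 to 78.8 CPM and endothelial genes to 51.1 to 120.9. In TGF-beta-treated WT the endothelial gene Tek alone had a mean of 118 CPM, with Tie1 and Emcn at 0. Trophoblast genes summed to 6.97 to 847 CPM, led by Krt7 and Tfap2c in Repsox-treated K36M (401.1 and 212.7 CPM). Tpbpa, a marker of spongiotrophoblast, was at 0 in all groups. Primitive endoderm genes summed to 546 to 967 CPM, led by Col4a1 and Lama1 (group means 509.8 to 741 and 42.4 to 240.6 CPM). The group means of Gata4, Gata6 and Sox17 were 0.517 to 7.46, 1.665 to 5.35 and 0 to 3.525 CPM. The 4 groups thus differed in the balance of fibroblast and epithelial RNA, as the plot of summed marker levels shows, and the part of that balance in the results on single genes was not tested. In bulk RNA, fewer cells of a type and less RNA per cell cannot be told apart.

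**Figure D1:**
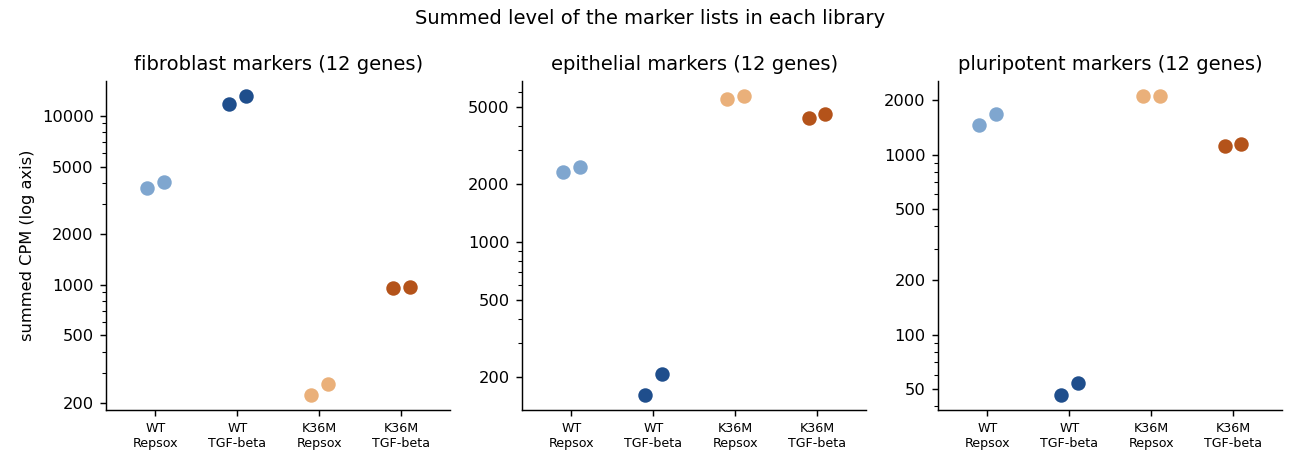
Summed CPM (log axis) of 12 fibroblast, 12 epithelial and 12 pluripotency markers in each library, by group; points are the 2 libraries. The fibroblast sum, though not each of its markers, is highest in TGF-beta-treated WT (11690 and 13090 CPM) and lowest in Repsox-treated K36M (222.5 and 259.1 CPM). The sums of the other lists are lowest in TGF-beta-treated WT.

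The activin subunit genes answered the treatment in opposite directions. Under TGF-beta, compared with Repsox, Inhba rose and Inhbb fell in both genotypes, and in K36M both subunits stood far below their highest WT level. In WT the main subunit therefore differed between treatments, with Inhbb ahead under Repsox and Inhba ahead under TGF-beta. The promoters of this pair are shown because the genes moved apart, together with that of Fstl3, which moved apart between the genotypes. Each is the 250 bases before the RefSeq start site on GRCm38.p6, written 5′ to 3′ along the gene's strand, with capitals on matches to 5 motifs searched on both strands.
Inhba, chr13:16011601-16011850, plus strand: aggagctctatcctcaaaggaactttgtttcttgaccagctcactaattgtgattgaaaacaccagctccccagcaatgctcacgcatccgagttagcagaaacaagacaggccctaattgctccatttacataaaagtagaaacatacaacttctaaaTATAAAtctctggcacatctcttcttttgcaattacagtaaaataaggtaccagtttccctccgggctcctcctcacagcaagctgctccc
Inhbb, chr1:119422249-119422498, minus strand: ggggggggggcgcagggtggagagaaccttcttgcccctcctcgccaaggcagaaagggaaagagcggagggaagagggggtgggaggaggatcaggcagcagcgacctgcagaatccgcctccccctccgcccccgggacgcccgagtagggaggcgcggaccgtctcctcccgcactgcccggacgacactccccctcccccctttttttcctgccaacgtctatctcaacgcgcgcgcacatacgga
Fstl3, chr10:79777024-79777273, plus strand: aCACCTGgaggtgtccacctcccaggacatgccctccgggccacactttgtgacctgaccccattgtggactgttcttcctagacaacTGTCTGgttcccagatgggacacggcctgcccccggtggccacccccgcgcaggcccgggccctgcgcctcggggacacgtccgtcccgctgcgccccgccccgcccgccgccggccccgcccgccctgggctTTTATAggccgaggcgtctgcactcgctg

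The motifs were the Smad-binding CAGA box (CAGACA, in 17.1% of 32851 promoters of this length), the palindromic Smad element (GTCTAGAC, 0.2%), the AP-1 element (TGANTCA, 6.7%), an E-box bound by ZEB and SNAIL repressors (CACCTG, 17.2%) and the TATA box (TATAAA, 12.4%). The Inhba window held 1 match to TATAAA, beginning 91 bases before the start site. The Inhbb window held none of the 5. The Fstl3 window held 1 E-box at 249 bases, 1 CAGA box at 162 bases and 1 match to TATAAA at 29 bases before the start site, none of them overlapping. The CAGA box and the TATAAA match lie on the strand opposite to the gene and read TGTCTG and TTTATA in the line printed above, and a TATA box is a directional element. The 5 other members in the promoter table had 6 windows, of which 0 held a match. The Inhba window was 43.2% G and C and the Inhbb window 68.0%, against a median of 52.4% over all promoters. A match is a description of the letters and not a bound site.

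Inhba (ENSMUSG00000041324, chromosome 13, 16103684 to 16119044 on mm9, plus strand, 5 exons) had 309 and 223 counts in Repsox-treated WT and 1261 and 1345 in TGF-beta-treated WT. In K36M it had 1 and 4 counts under Repsox and 22 and 24 under TGF-beta. No library of a group overlapped with another group. The groups had the order of the summed fibroblast markers, but not that of each marker, since 6 of the 12 fell under TGF-beta in WT while Inhba rose. On the CPM scale the levels were 20.8 and 16.9, 108.5 and 96.6, 0.066 and 0.32, and 1.72 and 2.10. Activin A is known as a product of fibroblasts exposed to TGF-beta. In WT, Inhba rose 5.43-fold under TGF-beta (log2 2.44 ± 0.13 SE, edgeR adjusted p = 1.51e-13). In K36M it rose 10.0-fold from its few reads (log2 3.32 ± 0.53, adjusted p = 1.77e-05). It was lower in K36M than in WT under both treatments, 99.1-fold under Repsox (log2 -6.63 ± 0.32, adjusted p = 6.05e-14) and 53.7-fold under TGF-beta (log2 -5.75 ± 0.18, adjusted p = 1.7e-17). The size of the Repsox values in K36M rests on 5 reads. Without K36M Repsox library 1 the genotype difference under Repsox was -5.83 and the rise in K36M 2.52 on the log2 scale, and without library 2 they were -7.97 and 4.66.

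Inhbb (ENSMUSG00000037035, chromosome 1, 121312042 to 121318825 on mm9, minus strand, 2 exons) stood at 121 and 107 CPM in Repsox-treated WT and at 1.64 and 1.72 CPM in TGF-beta-treated WT. In K36M it stood at 5.99 and 7.32 CPM under Repsox and at 1.49 and 1.84 CPM under TGF-beta. Only the WT Repsox libraries were high, and the TGF-beta libraries of the 2 genotypes overlapped. Inhbb fell 67.6-fold under TGF-beta in WT (log2 -6.08 ± 0.17, adjusted p = 2.01e-18) and 3.99-fold in K36M (log2 -1.995 ± 0.23, adjusted p = 2.18e-07). Under Repsox the K36M level was 17.3-fold below that of WT (log2 -4.11 ± 0.13, adjusted p = 9.39e-17). Under TGF-beta the genotype difference was -0.03 (95% interval -0.67 to 0.62, adjusted p = 0.942), so a change of up to about that width in either direction could not be told from none. That small value changed sign when library totals were used for scaling (0.17).

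**Figure D2:**
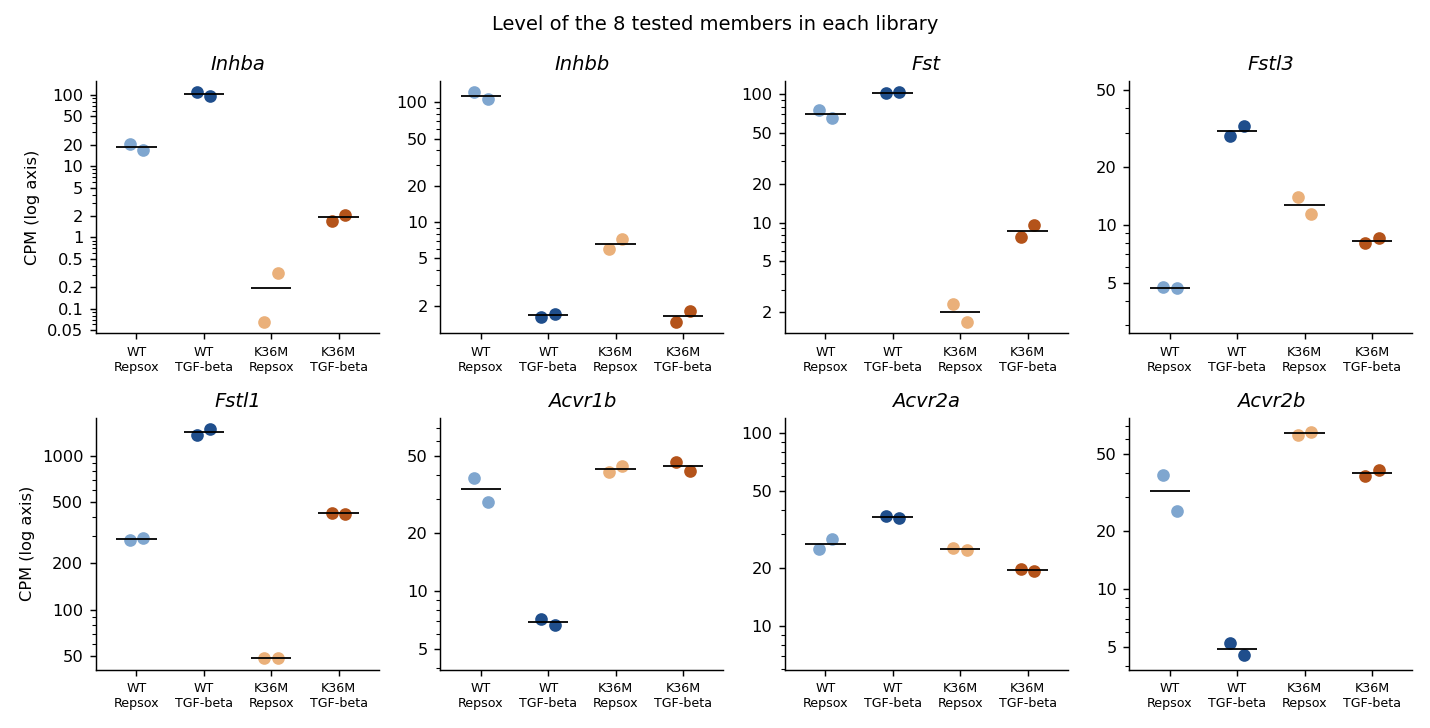
CPM (log axes, each panel with its own range) of the 8 tested members in each library of the 4 groups; points are libraries and lines are group means. Inhba is highest in TGF-beta-treated WT (108.5 and 96.6 CPM) and Inhbb in Repsox-treated WT (121 and 107 CPM), and Acvr1b and Acvr2b are lowest in TGF-beta-treated WT. Acvr1c, with at most 3 counts in a library, is not drawn.

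The follistatin genes did not move as 1 group. Fst and Fstl1 were lower in K36M than in WT under both treatments and rose under TGF-beta in both genotypes. Fstl3 was higher in K36M than in WT when Repsox was given and lower when TGF-beta was given. Compared with Repsox, it was higher under TGF-beta in WT and lower in K36M. Fst (ENSMUSG00000021765, chromosome 13, 115242470 to 115249159 on mm9, minus strand, 6 exons) stood at 75.2 and 65.4 CPM in Repsox-treated WT, 102.1 and 103.5 in TGF-beta-treated WT, 2.30 and 1.69 in Repsox-treated K36M, and 7.66 and 9.52 in TGF-beta-treated K36M. The 4 groups did not overlap, and every WT library was above every K36M library. Fst was 34.6-fold lower in K36M under Repsox (log2 -5.11 ± 0.16, adjusted p = 4.83e-17) and 12.0-fold lower under TGF-beta (log2 -3.59 ± 0.13, adjusted p = 1.04e-16). Under TGF-beta it rose 1.46-fold in WT (log2 0.55 ± 0.10, adjusted p = 5.21e-05) and 4.21-fold in K36M (log2 2.07 ± 0.21, adjusted p = 2.71e-08). Fst and the activin A subunit gene Inhba were thus low in the same K36M libraries, while Fstl3, another inhibitor gene, was not lower under Repsox.

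Fstl3 (ENSMUSG00000020325, chromosome 10, 79240017 to 79245375 on mm9, plus strand, 5 exons) encodes a follistatin relative that also binds activin. It stood at 4.72 and 4.68 CPM in Repsox-treated WT, 28.8 and 32.5 in TGF-beta-treated WT, 13.8 and 11.3 in Repsox-treated K36M, and 8.05 and 8.48 in TGF-beta-treated K36M. The groups did not overlap, and the K36M libraries lay between the WT groups. Fstl3 rose 6.51-fold under TGF-beta in WT (log2 2.70 ± 0.17, adjusted p = 4.13e-12) and fell 1.53-fold in K36M (log2 -0.61 ± 0.17, adjusted p = 0.00515). The fall in K36M did not pass without K36M Repsox library 1 (log2 -0.46, adjusted p = 0.0982; 0.00223 to 0.0982 over 15 alternatives). Against WT, Fstl3 in K36M was 2.68-fold higher under Repsox (log2 1.42 ± 0.18, adjusted p = 7.01e-07) and 3.71-fold lower under TGF-beta (log2 -1.89 ± 0.16, adjusted p = 5.63e-10). Its exons share 1157 of their 2446 bases with Prss57 on the other strand, which had 5 counts over all libraries. The strand setting of the counting is not given, so reads on the shared bases may have gone uncounted.

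Fstl1 (ENSMUSG00000022816, chromosome 16, 37776959 to 37836600 on mm9, plus strand, 11 exons) encodes a secreted glycoprotein of mesenchymal cells with a follistatin-like domain, first cloned as a transcript induced by TGF-beta. It had the most reads of the 9 genes in 3 of the 4 groups, with 284 and 293 CPM in Repsox-treated WT, 1364 and 1490 in TGF-beta-treated WT, 48.9 and 48.3 in Repsox-treated K36M, and 427 and 419 in TGF-beta-treated K36M. All 4 groups were apart. The K36M libraries under TGF-beta lay above the WT libraries under Repsox. Fstl1 rose 4.95-fold under TGF-beta in WT (log2 2.31 ± 0.07, adjusted p = 3.73e-18) and 8.70-fold in K36M (log2 3.12 ± 0.07, adjusted p = 1.15e-18). In K36M it was 5.93-fold lower under Repsox (log2 -2.57 ± 0.07, adjusted p = 7.33e-18) and 3.38-fold lower under TGF-beta (log2 -1.76 ± 0.07, adjusted p = 1.9e-16).

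Among the receptors, Acvr1b and Acvr2b both fell under TGF-beta in WT, and of this pair only Acvr2b passed the test in K36M. Acvr2a stayed between 19.2 and 37.3 CPM in all libraries, and was called higher in WT and lower in K36M. Acvr1b and Acvr2b were lowest in TGF-beta-treated WT and higher in K36M than in WT under both treatments, the opposite side from Inhba, Fst and Fstl1. Acvr1b (ENSMUSG00000000532, chromosome 15, 101004556 to 101043032 on mm9, plus strand, 9 exons), the type I receptor of activin and Nodal, stood at 38.7 and 28.9 CPM in Repsox-treated WT, 7.15 and 6.68 in TGF-beta-treated WT, 41.4 and 44.6 in Repsox-treated K36M, and 46.6 and 42.1 in TGF-beta-treated K36M. Only the WT TGF-beta libraries were low, and the K36M groups overlapped. Acvr1b fell 4.91-fold under TGF-beta in WT (log2 -2.30 ± 0.16, adjusted p = 1.3e-11). In K36M its change was 0.05 on the log2 scale (95% interval -0.21 to 0.30, adjusted p = 0.78). It was 6.43-fold higher in K36M under TGF-beta (log2 2.68 ± 0.15, adjusted p = 5.24e-13) and 1.27-fold higher under Repsox (log2 0.34 ± 0.12, adjusted p = 0.0239). The Repsox difference did not pass without WT Repsox library 2 (log2 0.15, adjusted p = 0.286) or K36M Repsox library 2 (0.29, 0.138), and was 0.57 without WT Repsox library 1 (adjusted p 0.000393 to 0.286 over 15 alternatives, of which 11 passed). It also missed with DESeq2 (0.35, 0.0801) and with only the groups compared (0.29, 0.0782).

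Acvr2b (ENSMUSG00000061393, chromosome 9, 119311562 to 119342619 on mm9, plus strand, 10 exons) stood at 38.8 and 25.4 CPM in Repsox-treated WT, 5.25 and 4.52 in TGF-beta-treated WT, 62.9 and 64.8 in Repsox-treated K36M, and 38.2 and 41.2 in TGF-beta-treated K36M. The WT TGF-beta libraries were the lowest and the K36M Repsox libraries the highest. Acvr2b fell 6.62-fold under TGF-beta in WT (log2 -2.73 ± 0.19, adjusted p = 1.34e-11) and 1.61-fold in K36M (log2 -0.69 ± 0.14, adjusted p = 0.000219). It was 1.98-fold higher in K36M under Repsox (log2 0.99 ± 0.14, adjusted p = 2.08e-06) and 8.15-fold higher under TGF-beta (log2 3.03 ± 0.18, adjusted p = 1.42e-12). The Repsox difference ranged from 0.72 to 1.33 on the log2 scale over 15 alternatives.

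Acvr2a (ENSMUSG00000052155, chromosome 2, 48669629 to 48758789 on mm9, plus strand, 11 exons), the other type II receptor of activin, stood at 25.3 and 28.3 CPM in Repsox-treated WT, 37.3 and 36.2 in TGF-beta-treated WT, 25.5 and 24.8 in Repsox-treated K36M, and 19.8 and 19.2 in TGF-beta-treated K36M. The Repsox libraries of the genotypes overlapped, the WT TGF-beta libraries were the highest and the K36M TGF-beta libraries the lowest. Acvr2a rose 1.37-fold under TGF-beta in WT (log2 0.46 ± 0.11, adjusted p = 0.00145) and fell 1.29-fold in K36M (log2 -0.37 ± 0.12, adjusted p = 0.0166). The rise in WT did not pass with library totals (log2 0.25, adjusted p = 0.0654; 0.000611 to 0.0654 over 15 alternatives). The fall in K36M passed under 10 of 15 alternatives (adjusted p 0.0071 to 0.0903). It did not pass with DESeq2 (0.0803), nor without K36M Repsox library 1 (0.0903) or 2 (0.0526), nor without K36M TGF-beta library 1 (0.0596) or 2 (0.0826). Acvr2a was 1.88-fold lower in K36M under TGF-beta (log2 -0.91 ± 0.12, adjusted p = 5.18e-07) and differed by -0.09 under Repsox (95% interval -0.33 to 0.15, adjusted p = 0.533). Its exons share 446 bases with Orc4, a replication gene on the other strand. Orc4 changed by 0.55 under TGF-beta in WT (adjusted p = 0.000596), by -0.32 in K36M (0.0414) and by -0.61 between genotypes under TGF-beta (0.000181), the same signs as Acvr2a. The strand setting of the counting is not given in the sources used here, so reads of this pair could not be assigned with certainty.

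Acvr1c (ENSMUSG00000026834, chromosome 2, 58119864 to 58210306 on mm9, minus strand, 9 exons), the alternative type I receptor, was all but unread. It had 0 and 0 counts in Repsox-treated WT, 3 and 2 in TGF-beta-treated WT, 2 and 0 in Repsox-treated K36M, and 0 and 0 in TGF-beta-treated K36M. The 5 counts of TGF-beta-treated WT correspond to 0.196 CPM (exact Poisson 95% interval 0.0636 to 0.457). The 0 counts over the Repsox libraries of WT allow up to 0.107 CPM, and those over the TGF-beta libraries of K36M up to 0.124 CPM, by the limit of 3 counts over the group. On the scale of the exact Poisson 95% interval their upper bounds were 0.131 and 0.152 CPM, and all of these cover counting error only. At this depth no difference between groups was detectable.

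Under Repsox 7 of the 8 tested members differed between genotypes, where 55.8% of all tested genes did. Of these, 3 were higher and 4 lower in K36M, against 28.8% and 26.9%. Under TGF-beta 7 differed, against 70.3%, with 2 higher and 5 lower in K36M, against 36.4% and 33.9%. In WT all 8 changed with the treatment, against 62.4%, with 5 up and 3 down under TGF-beta, against 29.0% and 33.4%. In K36M 7 changed, against 48.3%, with 3 up and 4 down, against 24.7% and 23.6%, and only 2 down without K36M Repsox library 1. The libraries of the groups compared did not overlap for exactly these members. Over all tested genes such separation was found for 75.4% between genotypes under Repsox (39.5% higher, 35.9% lower) and for 85.2% under TGF-beta (44.1% and 41.1%). Between treatments it was found for 79.4% in WT (37.0% and 42.4%) and for 75.1% in K36M (37.8% and 37.2%). Calls were thus common across the transcriptome, at 48.3% to 70.3% of tested genes in these comparisons, and the members' number of calls says little by itself. Their size is given as a description only. The median size of a log2 change over all tested genes was 0.474, 0.789, 0.622 and 0.421 in the same order. The changes of Inhba, Fstl1, Fstl3 and Acvr2b were beyond these values in all 4 comparisons. In each comparison as many tested genes lie beyond a median as short of it. The share of genes beyond it in all 4 was not computed. Fst fell short between treatments in WT (0.55) and Inhbb between genotypes under TGF-beta (-0.03). Acvr1b fell short between genotypes under Repsox (0.34) and between treatments in K36M (0.05). Acvr2a was beyond the median size between genotypes under TGF-beta (-0.91) and short of it in the other 3 comparisons.

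**Figure D3:**
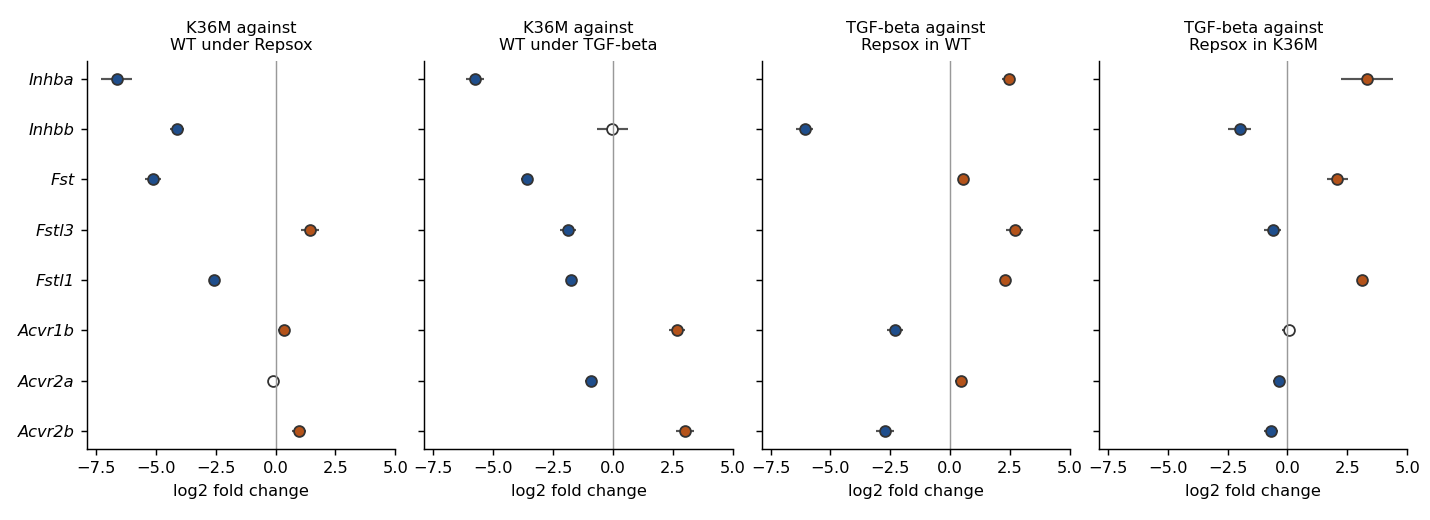
Log2 fold change of the 8 tested members in the 4 pairwise comparisons, with 95% intervals from the edgeR fit; filled points passed an adjusted p of 0.05 (orange higher, blue lower) and open points did not. Acvr1b and Acvr2b are to the right and Inhba and Fst to the left in both genotype comparisons, while Fstl3 changes side between treatments.

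Whether the difference between TGF-beta and Repsox depended on genotype was tested by the interaction, the log2 change in K36M minus that in WT. It passed for 7 of the 8 tested members, where 51.0% of all genes passed, with 5 higher and 2 lower, against 28.5% and 22.6%. The largest were those of Inhbb (log2 4.08 ± 0.37, adjusted p = 4.21e-09), whose fall was smaller in K36M, and Fstl3 (log2 -3.32 ± 0.24, adjusted p = 1.47e-10), whose direction turned. Acvr1b (2.34 ± 0.20, adjusted p = 1.73e-09) and Acvr2b (2.04 ± 0.23, adjusted p = 1.72e-07) fell less in K36M or not detectably. Fst (1.53 ± 0.24, adjusted p = 1.2e-05) and Fstl1 (0.81 ± 0.09, adjusted p = 1.86e-07) rose more in K36M than in WT. Acvr2a differed by -0.82 ± 0.17 (adjusted p = 0.000271). For Inhba the difference was 0.88 ± 0.62 (95% interval -0.40 to 2.16, adjusted p = 0.244), and it was 0.09 and 2.22 without K36M Repsox library 1 and 2, so equal responses were not shown.

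Levels were compared between genes per length, as counts scaled by merged exon length and library size (RPKM), with GENCODE vM1 gene models of 1753 bases (Acvr2b) to 9292 bases (Acvr1c). In WT under Repsox the order was Fstl1 (58.6 RPKM), Inhbb (26.9), Fst (26.2), Acvr2b (18.3), Acvr1b (10.3), Inhba (9.52), Acvr2a (4.71) and Fstl3 (1.92). Inhbb and Fst overlapped there, as did Acvr1b and Inhba. In WT under TGF-beta all neighbours were apart: Fstl1 (290.4 RPKM), Inhba (51.8), Fst (38.3), Fstl3 (12.5), Acvr2a (6.46), Acvr2b (2.79), Acvr1b (2.11) and Inhbb (0.395). In WT the top places were thus held by Fstl1, Fst and a subunit gene, Inhbb under Repsox and Inhba under TGF-beta. Inhbb went from the second place to the eighth, and under Repsox Fstl3 stood below Acvr2b, Acvr1b and Acvr2a.

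In K36M receptor genes stood near the top. Under Repsox the order was Acvr2b (36.4 RPKM), Acvr1b (13.1), Fstl1 (9.89), Fstl3 (5.15), Acvr2a (4.42), Inhbb (1.56), Fst (0.743) and Inhba (0.0979), with no neighbours overlapping. Under TGF-beta it was Fstl1 (86.1 RPKM), Acvr2b (22.7), Acvr1b (13.5), Acvr2a (3.43), Fstl3 (3.38), Fst (3.20), Inhba (0.964) and Inhbb (0.390). The overlapping neighbours were Acvr2a with Fstl3 and Fstl3 with Fst. Acvr1c was last in every group, at 0.0216 RPKM or less. These orders rest on the gene model lengths, of which that of Acvr2b was the shortest. In mean CPM, with no length scaling, Acvr1b was ahead of Acvr2b in TGF-beta-treated K36M (44.3 against 39.7). In Repsox-treated K36M Acvr2b stayed ahead (63.9 against 43.0). The place of Fstl3 also depends on the bases it shares with Prss57.

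The composition of each pair differed between groups, in shares chosen after the values were seen and given with no test. Inhba made up 27.0 and 25.2% of the summed RPKM of the subunit genes in Repsox-treated WT, 99.3 and 99.2% in TGF-beta-treated WT, 2.31 and 8.63% in Repsox-treated K36M, and 71.3 and 71.1% in TGF-beta-treated K36M. The sum itself was 39.0 and 33.7 RPKM, 55.2 and 49.2, 1.44 and 1.88, and 1.22 and 1.49 in the same order. In WT the sum was thus higher under TGF-beta (mean 52.2 against 36.4 RPKM, libraries apart) while its main part passed from Inhbb to Inhba. In K36M it stayed below 2 RPKM under both treatments. Fst made up 93.6 and 92.7% of Fst plus Fstl3 in Repsox-treated WT and 76.4 and 74.4% in TGF-beta-treated WT, but 13.2 and 11.9% in Repsox-treated K36M and 46.4 and 50.6% in TGF-beta-treated K36M. Fstl3 was therefore the main read follistatin gene of the pair in Repsox-treated K36M. Its counts were divided by all 2446 bases of its gene model, of which 1157 are shared with Prss57. Fstl3 is understated in these shares if reads there went uncounted, and other lengths were not tried for them. Acvr2b made up 83.3 and 74.4% of the type II receptor pair in Repsox-treated WT, 31.4 and 28.8% in TGF-beta-treated WT, 88.9 and 89.5% in Repsox-treated K36M, and 86.2 and 87.4% in TGF-beta-treated K36M. By this measure TGF-beta-treated WT was the only group in which Acvr2a led. The share rests on gene model lengths of 1753 bases for Acvr2b and 5686 for Acvr2a, and other lengths were not tried for it. In CPM, with no length scaling, Acvr2a was also ahead in Repsox-treated WT library 2 (28.3 against 25.4). The overlap of Acvr2a with Orc4 applies here too.

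**Figure D4:**
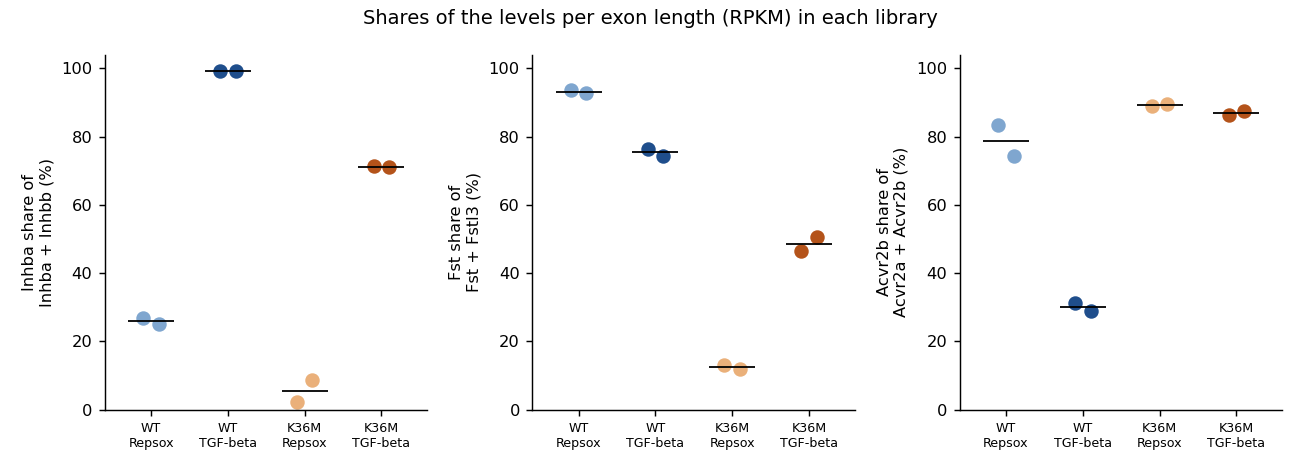
Share, in percent of summed RPKM, of Inhba in Inhba plus Inhbb, of Fst in Fst plus Fstl3 and of Acvr2b in Acvr2a plus Acvr2b, for each library by group; points are libraries and lines are group means. The Inhba share is 99.3 and 99.2% in TGF-beta-treated WT, and the Acvr2b share is below 50% in that group alone.

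The subunit genes were also set against the genes of their inhibitors. The log2 ratio of Inhba to Fst, per length, was -1.46 ± 0.07 (SD, n = 2) in Repsox-treated WT and 0.43 ± 0.13 in TGF-beta-treated WT. In K36M it was -3.32 ± 1.94 under Repsox and -1.73 ± 0.02 under TGF-beta. With both subunits over Fst plus Fstl3 the log2 ratio was 0.38 and 0.36 in Repsox-treated WT, 0.15 and -0.07 in TGF-beta-treated WT, -2.18 and -1.48 in Repsox-treated K36M, and -2.34 and -2.23 in TGF-beta-treated K36M. Every K36M library was below every WT library in this last ratio. A ratio of Acvr1b to Acvr1c was not formed, since Acvr1c had 0 counts in 5 of the 8 libraries. The choice of both subunits was made after the values were seen, and these ratios carry no test. The overlap of Fstl3 with Prss57 applies to the ratio over Fst plus Fstl3 too.

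The rest of the pathway was followed in 5 further lists. Of 12 other subunits and ligands of these receptors 8 were tested. In WT under TGF-beta 6 fell and 1 rose, against 33.4% and 29.0% of all tested genes, with a median log2 change of -2.74 against -0.07. In K36M 1 fell and 2 rose, against 23.6% and 24.7%, with a median of 0.12 against 0.01. Nodal stood at 18.7 CPM in Repsox-treated WT, 0.510 in TGF-beta-treated WT, 18.1 in Repsox-treated K36M and 60.5 in TGF-beta-treated K36M, as means of 2 libraries. It fell under TGF-beta in WT (log2 -5.17 ± 0.26, adjusted p = 9.08e-14) and rose in K36M (log2 1.73 ± 0.13, adjusted p = 2.57e-10). Bmp7, a ligand that can use activin type II receptors, fell in WT (log2 -4.31 ± 0.43, adjusted p = 1.1e-08) and changed by 0.27 ± 0.17 in K36M (adjusted p = 0.212). Inha, the subunit that turns activin into inhibin and is named here after its values were seen, passed in no comparison and stood at 1.35 to 2.75 CPM as group means.

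Of 15 co-receptors, traps and decoys 11 were tested. Under TGF-beta 2 rose and 3 fell in WT, and 4 rose and 2 fell in K36M, with the same shares of all tested genes behind them as for the ligands. Their medians were -1.04 and 0.64 on the log2 scale. Tdgf1, the co-receptor Cripto that lets Nodal bind Acvr1b and also one of the pluripotency markers above, had a log2 change of -5.59 ± 0.16 in WT (adjusted p = 5.02e-18) and of 0.82 ± 0.09 in K36M (adjusted p = 9.09e-08), so it fell with Acvr1b in WT. Grem1, a trap of BMP ligands, fell in both, by 2.85 ± 0.13 and 2.23 ± 0.43 on the log2 scale (adjusted p = 6.78e-15 and 0.000162). Lefty2, an inhibitor of Nodal named here after its values were seen, stood at 149.6 CPM in TGF-beta-treated K36M and at 0.227 to 0.638 CPM in the other groups.

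Of the 7 other type I and type II receptors of the family, 6 rose under TGF-beta in WT and 0 fell by edgeR (0 also at an unadjusted p below 0.05), against 29.0% and 33.4% of all tested genes. Among the activin receptors Acvr2a rose there too, and Acvr1b and Acvr2b fell. The list's median log2 change in WT was 1.28, against -0.07 over all tested genes. In K36M 4 rose and 1 fell, against 24.7% and 23.6%. Between genotypes under TGF-beta 6 of the 7 were lower in K36M and 1 was higher, against 33.9% and 36.4%. Acvr1, a type I receptor of BMPs that also binds activin, stood at 31.8, 401.4, 6.22 and 26.0 CPM in Repsox-treated WT, TGF-beta-treated WT, Repsox-treated K36M and TGF-beta-treated K36M. Its level rose 12.6-fold under TGF-beta in WT (log2 3.65 ± 0.11, adjusted p = 1.27e-17) and 4.23-fold in K36M (log2 2.08 ± 0.15, adjusted p = 1.3e-10). Tgfbr2, the type II receptor of TGF-beta, rose 1.59-fold in WT (log2 0.67 ± 0.09, adjusted p = 7.6e-07) and 1.33-fold in K36M (log2 0.42 ± 0.12, adjusted p = 0.00487).

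All 4 proprotein convertases, which cut the precursors of these ligands, were lower in K36M than in WT when TGF-beta was given, where 33.9% of all tested genes were. Their median log2 difference was -1.86, against 0.05 over all tested genes. With TGF-beta, Furin stood at 523 CPM in WT and 231 CPM in K36M (log2 -1.18 ± 0.08, adjusted p = 1.4e-11), and Pcsk6 at 91.7 and 18.4 CPM (log2 -2.31 ± 0.12, adjusted p = 1.52e-13). Of 14 Smads and partners, 9 rose and 3 fell under TGF-beta in WT, against 29.0% and 33.4% of all tested genes, and 7 rose and 1 fell in K36M, against 24.7% and 23.6%. Their median log2 changes were 0.34 and 0.32. Pmepa1, an inhibitor induced by TGF-beta that holds back Smad2 and Smad3, rose 28.4-fold in WT (log2 4.83 ± 0.12, adjusted p = 2.31e-19) and 8.82-fold in K36M (log2 3.14 ± 0.13, adjusted p = 8.33e-15). Skil, a co-repressor of Smads, rose 8.08-fold (log2 3.01 ± 0.09, adjusted p = 2.82e-18) and 3.13-fold (log2 1.65 ± 0.08, adjusted p = 1.54e-13).

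**Figure D5:**
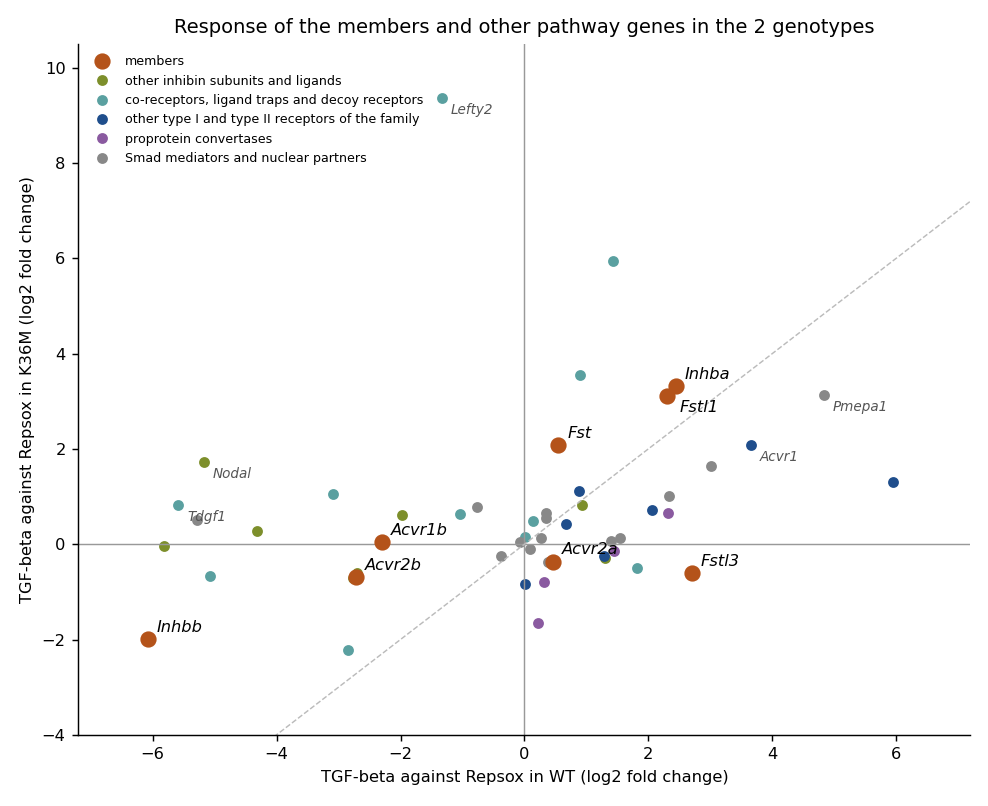
Log2 fold change of TGF-beta against Repsox in WT (horizontal) and in K36M (vertical) for the 8 tested members (large, labelled) and the other tested pathway genes, coloured by list; the dashed line marks equal change. Inhba, Fst and Fstl1 are above 0 on both axes, Inhbb and Acvr2b below 0 on both, and Nodal and Tdgf1 are to the left and above 0.

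The genes with the pattern most like each member's were sought over the 8 libraries among 10306 named genes, by the root mean square difference of centred log2 CPM. It was 0.382 for Inhba and its nearest gene Pappa, which encodes a protease of insulin-like growth factor binding proteins, followed by Igfbp3 (0.476) and Flrt2 (0.485). Fst was nearest to Col6a1 (0.307), Pcdh7 (0.308) and Cyp1b1 (0.312), and Fstl1 to Fkbp10 (0.151), Plekho1 (0.226) and Col4a6 (0.260). For Inhbb the nearest were Prelp (0.556), the receptor gene Pdgfra (0.759) and Apcdd1 (0.782), so its nearest gene was farther than that of any other member searched. Pdgfra is in both the fibroblast and the primitive endoderm marker lists. Fstl3 was nearest to Kdelr3 (0.240), App (0.252) and Itga5 (0.271). The receptor genes had other neighbours. Acvr1b was nearest to Pold1 (0.093), Hdac5 (0.094) and Cdca5 (0.117), of which Pold1 encodes a DNA polymerase subunit and Cdca5 a cohesin regulator of dividing cells. Acvr2b was nearest to Iqgap3 (0.166), Igf2bp1 (0.204) and Marveld3 (0.205), which encodes a tight junction protein. Acvr2a was not searched because its group means spanned less than 2 log2 units. These distances describe 8 libraries in 4 groups, which all genes share.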

How the data were processed

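The deposited values are whole read counts per gene, 1 column per library. STAR 2.5.0, HTSeq 0.11.2 and edgeR with the mm9 genome are named, per the submitters' processing notes; annotation and strand setting are not given in the sources used here. Of 26930 identifiers, 26763 were found in GENCODE vM1 (mm9), the source of coordinates and lengths.

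From the counts, edgeR 4.0.16 (R 4.3.3) kept 15789 genes (filterByExpr), scaled libraries by TMM and fitted a quasi-likelihood model of 4 group means, with 4 residual degrees of freedom. The call threshold was 0.05 on p-values adjusted by Benjamini-Hochberg across every tested gene. CPM and RPKM use TMM-scaled sizes. A ± beside a log2 fold change is its standard error. Between libraries of a group, chi-square per degree of freedom was 2.70 to 9.09, where 1 is counting error, and it was highest in Repsox-treated WT. The fit was tested on simulated data. Alternatives used DESeq2 1.42.0, limma 3.58.1, other scaling, no filter, a replicate block and each library left out.

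Members and lists were chosen with earlier results of these data known. All members were named, plus from each list the 2 called genes with the smallest adjusted p in any pairwise comparison, and for members spanning at least 2 log2 units the 3 nearest genes of mean log2 CPM of at least 2. Of 121 other listed genes, 119 were in the table. Promoters were found for 8 of 9 members in RefSeq (GRCm38.p6).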

Additional observations from a re-analysis of the deposited data

Results flagged for a closer look

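The change under TGF-beta against Repsox differed between WT and K36M by its own test, the interaction, for 7 members. On the log2 scale, as the change in K36M minus that in WT, it was 4.08 for Inhbb, 1.53 for Fst, 0.81 for Fstl1, -3.32 for Fstl3, 2.34 for Acvr1b, -0.82 for Acvr2a and 2.04 for Acvr2b. Each passed under all 14 alternatives run. Over all tested genes the interaction passed for 51.0%, so a difference of this kind was common. It passed, as higher, for 12 of 12 epithelial and 12 of 12 pluripotency markers, and for 10 of 12 fibroblast markers, of which 8 were higher and 2 lower. The part of these markers in the members' values was not tested.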

How the results depend on the processing

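Among the recomputed values of single members, 576 kept their direction and side of the threshold, 11 lost their call and 5 changed sign. The sign changes concerned values near 0 that were never called: Inhbb between genotypes under TGF-beta was 0.17 with library totals and -0.17 to 0.13 with 1 library left out, and Acvr1b in K36M was -0.03 to 0.12 with 1 library left out. The number of members called lower under TGF-beta in K36M was 2 to 4 with 1 library left out. Library totals in place of TMM moved the median log2 change of all genes by -0.21 in WT, by 0.20 between genotypes under TGF-beta and by 0.22 for the interaction. The share of higher calls became 33.8% in place of 46.5% in WT and 69.8% in place of 55.8% for the interaction. Fst in WT was then 0.34. With the length of the longest transcript, the log2 ratio of Inhba to Fst was -1.65 in Repsox-treated WT, 0.25 in TGF-beta-treated WT and -1.91 in TGF-beta-treated K36M. That of Inhba to Fst plus Fstl3 was -1.76, -0.19 in place of 0.03, and -3.02. Same-numbered libraries did not deviate together (r -0.02 to 0.03), and the replicate block changed no member's call: under Repsox it gave 4594 genes higher and 4286 lower in K36M, in place of 4551 and 4254. With 2 libraries a group, a library left out leaves a lone one that is assumed to vary like the other groups. Depth limits Acvr1c and Inhba in Repsox-treated K36M.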
